A study of Mus musculus with 2 samples.

Results

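The Hippo-YAP genes examined here are 10 genes of a growth control pathway in mouse primary aortic vascular smooth muscle cells (VSMCs), which contract the wall of the artery. They were taken by name, with earlier results of these data known, and all 10 were among the 11263 genes of the deposited table. The set holds 4 YAP targets (Cyr61, Ctgf, Ankrd1 and Amotl2) and 6 pathway components (Yap1, Wwtr1, Tead1, Lats1, Lats2 and Ajuba). The question asked of the data was whether the targets and the components differed alike between VSMCs infected with an adenovirus encoding Klf5 (Ad-Klf5), a zinc finger transcription factor of cardiovascular remodeling, and VSMCs infected with the control adenovirus encoding GFP (Ad-Ctl).

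The labels name 1 RNA library for each condition, both from primary aorta, with the strain written as C57BL/7 for Ad-Klf5 and C57BL/6 for Ad-Ctl. According to the methods, the mice of the study were male, virus was given in serum-free medium, and both infections lasted equally long. The age of the mice and the number of mice per culture are not given in the sources used here, and the treatment text of the labels names another cell line and a lentivirus. A difference of strain cannot be told apart from the infection. Values are FPKM (read fragments scaled by transcript length and by the mapped total of the library), and summed to 300045 in Ad-Klf5 and 278962 in Ad-Ctl over all gene rows. The methods give an approximate number of reads per sample, but the values carry no read counts, so the count behind a value is unknown.

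In the Hippo pathway, the kinases LATS1 and LATS2 phosphorylate the coactivators YAP and TAZ, which then stay in the cytoplasm or are degraded. When the kinases are silent, as in spread or stretched cells, YAP and TAZ enter the nucleus and act through the DNA-binding TEAD factors, which recognise the element GGAATG. Cyr61, Ctgf, Ankrd1 and Amotl2 are widely used readouts of this activity, and in smooth muscle cells YAP is known as a mechanosensitive regulator of growth and of the contractile state. YAP and TAZ are controlled mainly at the level of the protein, so the mRNA of a component need not follow the activity of the pathway.

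The TEAD element is shown in the promoters of the targets, because it is the feature that the targets share by their known regulation. RefSeq promoter windows of GRCm38.p6, from 250 bases before to 50 bases after each transcription start, were at hand for 8 of the 10 genes, with 10 windows in all, and Ctgf and Tead1 had no entry. The 250 bases before the start follow 5′ to 3′ on the strand of the gene for Cyr61 (chr3:145649986-145650235, minus strand), Ankrd1 (chr19:36119845-36120094, minus strand) and Amotl2 (chr9:102717554-102717803, plus strand), with each GGAATG, or CATTCC on the other strand, in capitals.
Cyr61: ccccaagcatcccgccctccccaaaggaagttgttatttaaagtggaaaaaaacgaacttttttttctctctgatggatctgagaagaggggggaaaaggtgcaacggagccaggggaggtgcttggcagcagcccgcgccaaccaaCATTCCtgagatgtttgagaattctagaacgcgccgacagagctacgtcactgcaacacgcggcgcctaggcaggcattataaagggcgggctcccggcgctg
Ankrd1: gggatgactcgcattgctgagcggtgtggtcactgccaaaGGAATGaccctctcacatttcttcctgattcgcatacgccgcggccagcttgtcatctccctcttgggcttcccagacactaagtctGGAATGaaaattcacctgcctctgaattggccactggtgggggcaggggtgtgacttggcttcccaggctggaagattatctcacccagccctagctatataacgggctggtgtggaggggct
Amotl2: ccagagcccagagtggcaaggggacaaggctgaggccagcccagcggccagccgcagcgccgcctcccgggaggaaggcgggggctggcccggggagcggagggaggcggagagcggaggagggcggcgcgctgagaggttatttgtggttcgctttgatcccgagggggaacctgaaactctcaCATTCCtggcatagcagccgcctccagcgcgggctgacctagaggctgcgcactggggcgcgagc

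The 3 target windows all held the element, which began at -103 from the start in Cyr61, at -65 in Amotl2, and at -210 and -123 in Ankrd1, in bases. It was also found in windows of components, at -141 in Yap1, at -136 from 1 start of Wwtr1 and -170 from the other, and at -186 and -164 in Ajuba. The matches in Yap1 (chr9:8004705-8004764, minus strand), Wwtr1 (chr3:57576014-57576073, minus strand) and Ajuba (chr14:54577815-54577874, minus strand, with both of its matches) are given with the bases around them, in the same notation.
Yap1: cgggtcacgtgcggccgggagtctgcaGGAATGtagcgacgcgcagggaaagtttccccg
Wwtr1: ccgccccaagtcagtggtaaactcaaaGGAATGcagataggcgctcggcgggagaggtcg
Ajuba: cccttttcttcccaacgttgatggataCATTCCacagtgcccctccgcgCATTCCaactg

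In all, 8 of the 10 windows held GGAATG on either strand, where 14.7% of the 32851 mouse promoter windows did. Both windows of Wwtr1 held the same match. By gene, 7 of the 8 held the element, where 16.6% of the 27025 mouse genes with a window did. The window of Lats1 held no match, and in Lats2 the match lay 5 bases after the start of 1 of its 2 windows. The letters CACCC, which are part of the sites that Krüppel-like factors bind, were found on either strand in 8 of the 10 member windows and in 57.5% of all windows. Of the 3 target windows, only that of Ankrd1 held CACCC. The CArG box of the serum response factor SRF was in none of the 10 windows and in 1.63% of all windows. No match of the TEAD letters overlapped one of the KLF letters in these windows. A match is a description of the letters and not a measured binding site.

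**Figure D1:**
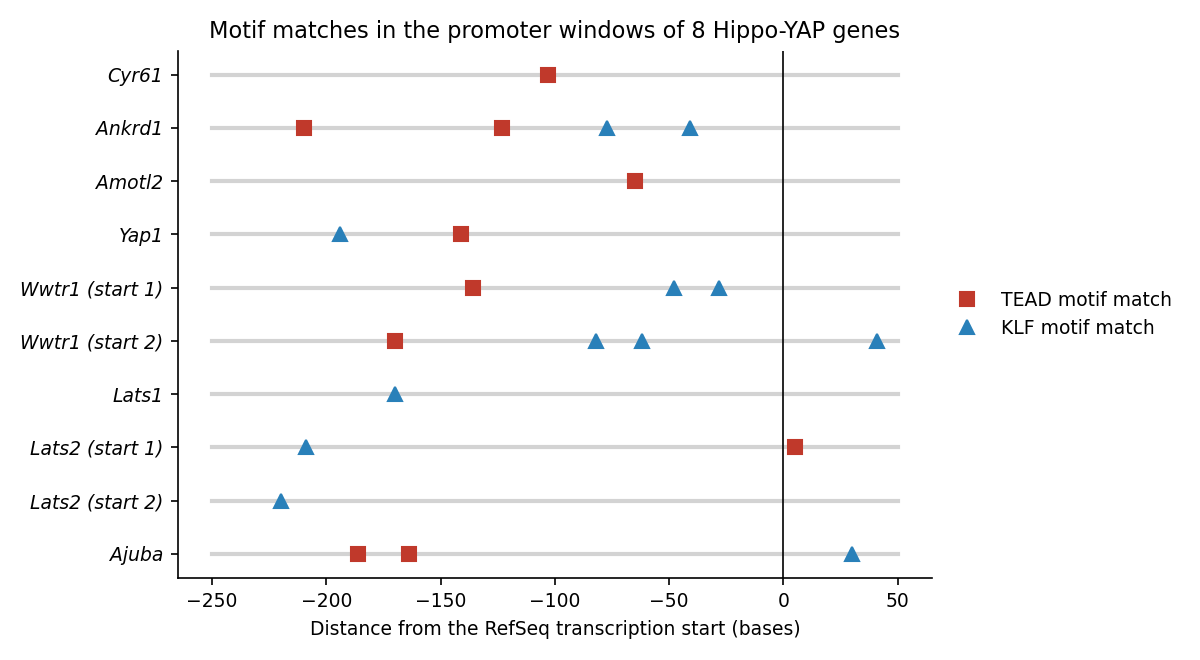
Matches of the TEAD motif (squares) and the KLF motif (triangles), on either strand, in the 10 RefSeq promoter windows of 8 genes; the x axis gives the distance in bases from the transcription start and grey lines show the window. The TEAD motif stands before the start in Cyr61, Ankrd1, Amotl2, Yap1, Wwtr1 and Ajuba, and 5 bases after it in Lats2.

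The 4 targets were all higher in value in the named Ad-Klf5 library than in the named Ad-Ctl library, and Cyr61 alone was at least 2-fold higher. A log2 ratio here is the log2(FPKM + 1) value of the Ad-Klf5 library less the one of the Ad-Ctl library, which understates differences at low FPKM, and with 1 named library per condition they carry no test. A gene was counted as measured where its 2 values averaged 1 FPKM or more, and of 10157 such genes 0.975% were at least 2-fold higher, 0.679% were at least 2-fold lower and 47.9% had a ratio above 0. The median ratio of all these genes was -0.017. Klf5 itself was at 2.62 FPKM in Ad-Klf5 and 1.76 FPKM in Ad-Ctl (log2 ratio 0.39), on the side the labels give but under 2-fold, and its values left in the authors' group means, explained further on, differed by -0.17. In those values, if a group held 2 libraries, none of the 4 targets was higher in value in Ad-Klf5. If it held 3, Cyr61 was at 0.18, Amotl2 at 0.12, Ankrd1 at 0.10 and Ctgf at -0.21, so the direction left for Cyr61, Amotl2 and Ankrd1 depends on that number.

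Cyr61 encodes a secreted matricellular protein of the CCN family that binds integrins (ENSMUSG00000028195.4, named Ccn1 in GENCODE, chromosome 3 from 145646976 to 145649981 on GRCm38, minus strand). It was at 66.6 FPKM in Ad-Klf5 and 28.1 FPKM in Ad-Ctl, a log2 ratio of 1.22 or 2.32-fold on the FPKM + 1 scale. A ratio of at least this size was found in 0.473% of the measured genes. Amotl2, an angiomotin that binds YAP at cell junctions and is itself a YAP target (ENSMUSG00000032531.15, chromosome 9 from 102716672 to 102733418, plus strand), was at 18.3 FPKM in Ad-Klf5 and 11.6 FPKM in Ad-Ctl (log2 ratio 0.61). Ankrd1, a cofactor with ankyrin repeats that is induced in stretched muscle (ENSMUSG00000024803.8, chromosome 19 from 36111965 to 36119844, minus strand), was at 36.1 FPKM in Ad-Klf5 and 24.1 FPKM in Ad-Ctl (log2 ratio 0.56). Ctgf, the second CCN gene of the set (ENSMUSG00000019997.11, Ccn2 in GENCODE, chromosome 10 from 24595442 to 24598683, plus strand), had the lowest ratio of the targets, with 16.3 FPKM in Ad-Klf5 and 11.3 FPKM in Ad-Ctl (0.49). Of all measured genes, 7.32% had a ratio at or above that of Ctgf. At 1.5-fold, Cyr61 and Amotl2 were counted as higher, where 4.44% of the measured genes were 1.5-fold higher and 5.48% were 1.5-fold lower.

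The components differed less and in both directions. Yap1, which encodes YAP (ENSMUSG00000053110.13, chromosome 9 from 7931999 to 8004596, minus strand), was at 9.47 FPKM in Ad-Klf5 and 11.2 FPKM in Ad-Ctl (log2 ratio -0.22). Its paralog Wwtr1, which encodes TAZ (ENSMUSG00000027803.14, chromosome 3 from 57455649 to 57575910, minus strand), was at 19.6 FPKM in Ad-Klf5 and 15.6 FPKM in Ad-Ctl (0.31). Opposite signs thus stood beside each other in the pair, and neither gene was 1.5-fold apart. On the FPKM scale, TAZ was the more abundant mRNA of the pair in both libraries, with 67.4% of their sum in Ad-Klf5 and 58.2% in Ad-Ctl, and the sum itself was 29.1 FPKM in Ad-Klf5 and 26.7 FPKM in Ad-Ctl.

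The kinase genes were low in both libraries. Lats2 (ENSMUSG00000021959.16, chromosome 14 from 57689662 to 57758388, minus strand) was at 4.55 FPKM in Ad-Klf5 and 5.81 FPKM in Ad-Ctl (log2 ratio -0.29), although it is also known as a YAP target that feeds back on the pathway. Lats1 (ENSMUSG00000040021.13, chromosome 10 from 7681214 to 7716460, plus strand) was at 2.67 FPKM in Ad-Klf5 and 3.05 FPKM in Ad-Ctl (-0.14). Ajuba, a LIM protein that holds LATS kinases at tensed junctions and restrains them (ENSMUSG00000022178.11, chromosome 14 from 54567472 to 54577558, minus strand), was the most abundant component, with 30.1 FPKM in Ad-Klf5 and 21.7 FPKM in Ad-Ctl (0.46). Its ratio was the next one below that of Ctgf.

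Tead1, a TEAD factor that binds muscle gene elements (ENSMUSG00000055320.17, chromosome 7 from 112679318 to 112906807, plus strand), was at 1.17 FPKM in Ad-Klf5 and 0.759 FPKM in Ad-Ctl, a log2 ratio of 0.31. Its mean of 0.967 FPKM was just under the minimum of 1 FPKM, so 9 of the 10 genes passed it, and Tead1 is given by its values only. The other TEAD genes were higher in level. Tead2 was the most abundant of the 4 in FPKM, with 24.4 FPKM in Ad-Klf5 and 32.5 FPKM in Ad-Ctl (log2 ratio -0.40). Tead3 was at 10.3 FPKM in Ad-Klf5 and 13.6 FPKM in Ad-Ctl (-0.37). Tead4 was at 5.20 FPKM in Ad-Klf5 and 3.06 FPKM in Ad-Ctl (0.61). If a group held 2 libraries, the values left in the authors' means differed by -0.16 for Tead2, -0.17 for Tead3 and 0.048 for Tead4. The 4 TEAD genes summed to 41.0 FPKM in Ad-Klf5 and 49.9 FPKM in Ad-Ctl, of which Tead1 held 2.86% in Ad-Klf5 and 1.52% in Ad-Ctl.

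**Figure D2:**
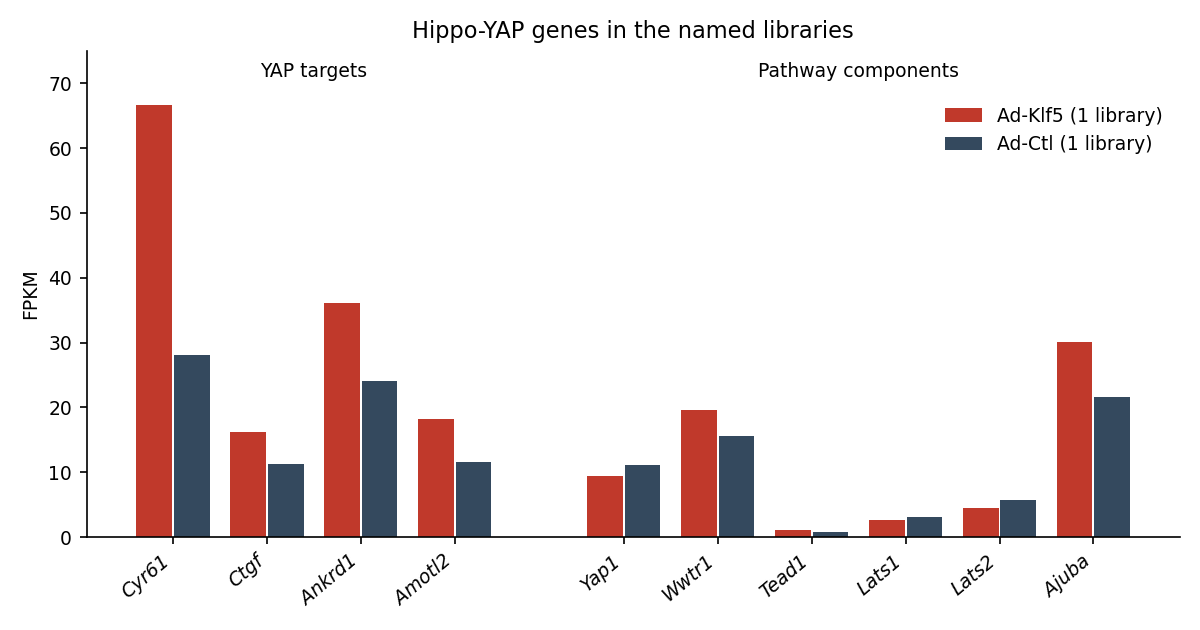
FPKM of the 4 YAP targets and the 6 pathway components in the named Ad-Klf5 library (left bar of each pair) and the named Ad-Ctl library (right bar), 1 library each, so there are no error bars. The Ad-Klf5 bar is the taller for every target, most of all for Cyr61 (66.6 against 28.1 FPKM), and the shorter for Yap1, Lats1 and Lats2.

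Set against each other, the 4 targets had a median log2 ratio of 0.58 and the 5 components over the minimum a median of -0.14, which is a difference of 0.73. With Tead1 the median of the 6 components was 0.083, with 3 genes above 0 and 3 below, and the difference was 0.50. The targets ranged from 0.49 to 1.22 and the components over the minimum from -0.29 to 0.46, so the 2 sets did not overlap in these libraries. The genes share both libraries and are not replicates of a condition.

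Exon length moved with this difference. The targets had a median exon length of 2873.5 bases and the components of 7134 bases in GENCODE vM21, and over 10142 measured genes, which share both libraries, longer genes had lower ratios (Spearman correlation -0.26). With each ratio centred on the median of the genes in the same of 10 bins of exon length, Cyr61 was at 1.14, Amotl2 at 0.69, Ankrd1 at 0.53 and Ctgf at 0.46. Ajuba was then at 0.49, above Ctgf, so the sets overlapped. The medians were then 0.61 for the targets and -0.028 for the components over the minimum, a difference of 0.64 against 0.73 without centring.

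If a group held 2 libraries, the Ad-Ctl values lay further apart in the targets than the groups did. Beside the named libraries, the table gives the authors' mean of log2(FPKM + 1) for each group, which differs from the named library. It was read as holding at least 1 library that the labels do not name. The labels do not state this, and it was not tested. On the assumption of 2 libraries per group, the value left in the mean once the named library is taken out can be set beside the named one. These values are read on the log2(FPKM + 1) scale, come from no labelled library and carry no test.

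For Cyr61 the authors' mean was 6.25 in Ad-Klf5 and 5.73 in Ad-Ctl. The Ad-Klf5 values were 6.08 in the named library and 6.42 left in the mean, and the Ad-Ctl values were 4.86 in the named library and 6.59 left in the mean. The named Ad-Ctl library was thus the low one of the 4, and the values left in the means differed by -0.17, against 1.22 in the named pair. Ctgf was at 4.11 and 4.97 in Ad-Klf5 and at 3.62 and 5.41 in Ad-Ctl, named library first, and the values left differed by -0.44. Ankrd1 was at 5.21 and 6.30 in Ad-Klf5 and at 4.65 and 6.35 in Ad-Ctl, with a difference of -0.053 between the values left. Amotl2 was at 4.27 and 4.70 in Ad-Klf5 and at 3.66 and 4.74 in Ad-Ctl, with a difference of -0.039.

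If a group held 2 libraries, both Ad-Klf5 values lay between the Ad-Ctl values in all 4 targets. This was so for none of the 5 components over the minimum and for 19.6% of 10145 measured genes. On that assumption the groups overlapped fully in every target. With 3 libraries per group, the values left were higher in Ad-Klf5 for Cyr61 (0.18), Amotl2 (0.12) and Ankrd1 (0.10). For Ctgf they were lower (-0.21), so the full overlap depends on that number. The difference of the authors' means was 0.52 for Cyr61, 0.29 for Amotl2, 0.25 for Ankrd1 and 0.021 for Ctgf, all under 1.5-fold. For the components it was 0.26 for Ajuba, 0.23 for Tead1, 0.20 for Wwtr1, -0.011 for Lats1, -0.16 for Yap1 and -0.25 for Lats2.

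For the targets, the distance between the named Ad-Ctl library and the value left in the mean was unlike that of most genes. In Ad-Ctl, the named library was at -1.73 relative to the value left for Cyr61, at -1.79 for Ctgf and at -1.70 for Ankrd1. A distance this far below 0 was found in 0.276%, 0.227% and 0.306% of the measured genes for the 3 genes in that order, while the median over all genes was 0.060. Amotl2 was at -1.08, a distance reached by 3.04% of the genes. In Ad-Klf5 the same distance was -0.34 for Cyr61, -0.86 for Ctgf, -1.09 for Ankrd1 and -0.43 for Amotl2, beside a median of -0.0068 over all genes. Among components, Lats1 had the widest distance, at -1.27 in Ad-Klf5 and -1.01 in Ad-Ctl, and Wwtr1 was at -0.62 in Ad-Klf5 and -0.85 in Ad-Ctl. Yap1 was nearly level, at -0.28 in Ad-Klf5 and -0.16 in Ad-Ctl.

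**Figure D3:**
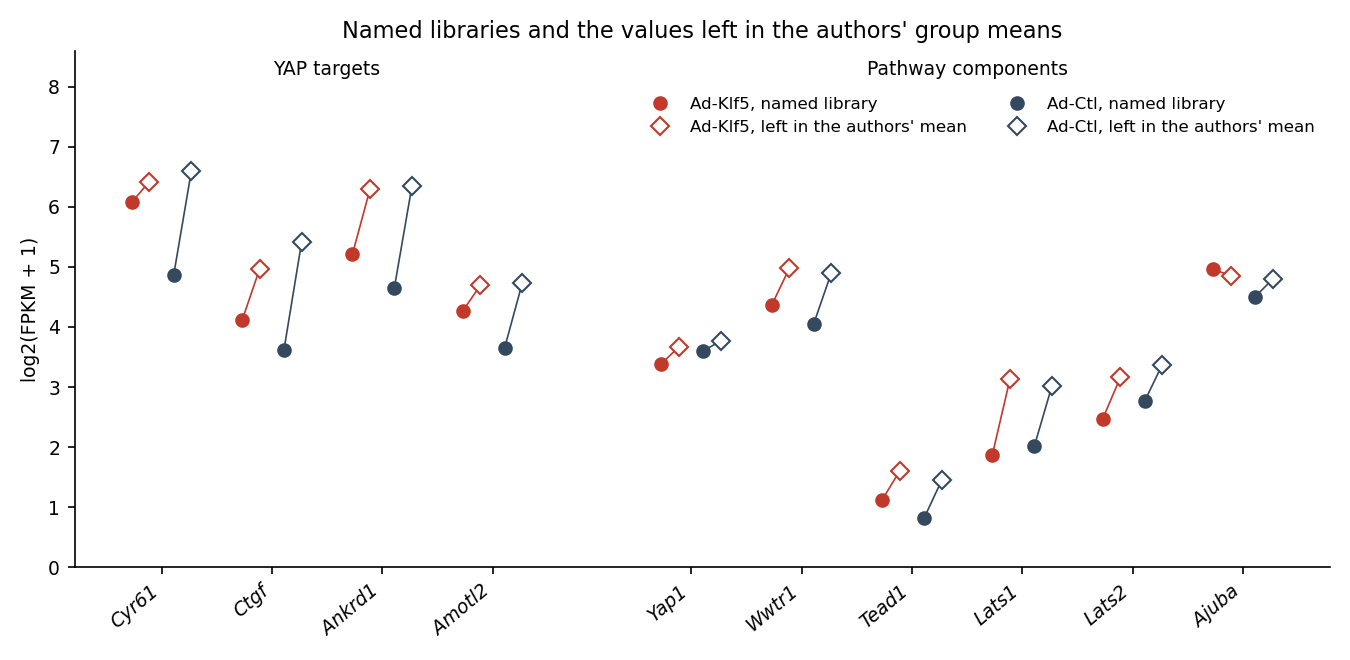
Log2(FPKM + 1) of each gene in the named library (filled circles) and as left in the authors' group mean on the assumption of 2 libraries (open diamonds), Ad-Klf5 to the left and Ad-Ctl to the right of each gene; lines join values of a group. For the 4 targets the Ad-Ctl line is the longer one and spans both Ad-Klf5 values, as for Cyr61 (4.86 to 6.59 in Ad-Ctl).

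Other genes of the pathway were taken from lists written with earlier results of these data known. Of 26 further reported YAP-TEAD targets over the minimum, 1 was at least 2-fold higher in Ad-Klf5, none was 2-fold lower and 25 were under 2-fold, with 15 above 0 and a median log2 ratio of 0.11. Ccnd1, the G1 cyclin D1, was the one that was higher, at 34.7 FPKM in Ad-Klf5 and 10.9 FPKM in Ad-Ctl (log2 ratio 1.58), and its values left in the authors' means differed by -0.15. Igfbp3, a secreted binding protein of insulin-like growth factors, was at 33.5 FPKM in Ad-Klf5 and 19.8 FPKM in Ad-Ctl (0.73), with 0.032 between the values left. On the other side stood Gas6, the ligand of the receptor Axl, at 12.8 FPKM in Ad-Klf5 and 19.8 FPKM in Ad-Ctl (-0.59), and its values left differed by 0.085, on the opposite side. Axl itself had a ratio of -0.025, at 189 FPKM in Ad-Klf5 and 192 FPKM in Ad-Ctl. The named library was below the value left in the mean for 23 of the 26 in Ad-Klf5 and 22 of the 26 in Ad-Ctl. Of all measured genes, 50.5% in Ad-Klf5 and 44.9% in Ad-Ctl were below. The upstream regulators described next shared this, with 23 of 24 below in Ad-Klf5 and 18 of 24 in Ad-Ctl. Of the 23 effectors and partners, 16 were below in Ad-Klf5 and 14 in Ad-Ctl. Of the 5 components over the minimum, 4 were below in Ad-Klf5 and 5 in Ad-Ctl.

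Upstream, 24 kinases, scaffolds and other regulators over the minimum had a median log2 ratio of -0.092, and none was 2-fold apart. The protocadherin Fat1 was at 11.7 FPKM in Ad-Klf5 and 22.2 FPKM in Ad-Ctl (log2 ratio -0.86), with -0.094 between its values left in the authors' means. The kinases Taok2, Taok3 and Map4k4, which can feed into LATS, had ratios of -0.58, -0.45 and -0.42. Their values left differed by 0.11, 0.093 and -0.028. Over the 24 genes, the values left had a median difference of 0.072, with 17 above 0. The Hippo kinase genes Stk3 and Stk4 had ratios of 0.086 and -0.047. Of 23 effectors and partners, 1 was 2-fold higher and 22 were under 2-fold, and their median was -0.10. The one that was higher was Ywhaq, a 14-3-3 protein of the kind that holds phosphorylated YAP in the cytoplasm, at 57.7 FPKM in Ad-Klf5 and 28.3 FPKM in Ad-Ctl (1.00), just past 2-fold. Its values left in the authors' means differed by 0.48, on the same side. Amotl1, Ptpn14 and Vgll4, which bind YAP or compete with it for TEAD, had ratios of -0.50, -0.49 and -0.44. The values left for these 3 genes differed by -0.031, -0.064 and -0.12. Ptpn14 is in both this list and that of the further targets.

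The families of the members were compared in the same libraries. Amotl2 held 64.8% of the summed FPKM of the 3 angiomotins in Ad-Klf5 and 45.0% in Ad-Ctl, and Amotl1 held 30.3% in Ad-Klf5 and 48.3% in Ad-Ctl, so that Amotl1 led in the named Ad-Ctl library only. In the values left in the authors' means, Amotl2 led in both groups, with log2(FPKM + 1) of 4.70 in Ad-Klf5 and 4.74 in Ad-Ctl, beside 3.88 in Ad-Klf5 and 3.91 in Ad-Ctl for Amotl1. Cyr61 held 56.9% of the CCN genes in Ad-Klf5 and 39.8% in Ad-Ctl, and the sum of the 5 genes was 116.9 FPKM in Ad-Klf5 and 70.5 FPKM in Ad-Ctl. Of the other CCN genes, Wisp1 was at 4.71 FPKM in Ad-Klf5 and 2.60 FPKM in Ad-Ctl (log2 ratio 0.66). Wisp2 was at 27.4 FPKM in Ad-Klf5 and 25.6 FPKM in Ad-Ctl (0.094), and Nov at 1.99 FPKM in Ad-Klf5 and 2.85 FPKM in Ad-Ctl (-0.37). In the values left in the authors' means, Wisp1 differed by -0.063, Wisp2 by -0.29 and Nov by 0.098. Cyr61 and Ctgf were also lower there in Ad-Klf5, by -0.17 and -0.44. The LIM genes Limd1 and Wtip, relatives of Ajuba, had ratios of -0.10 and -0.036.

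**Figure D4:**
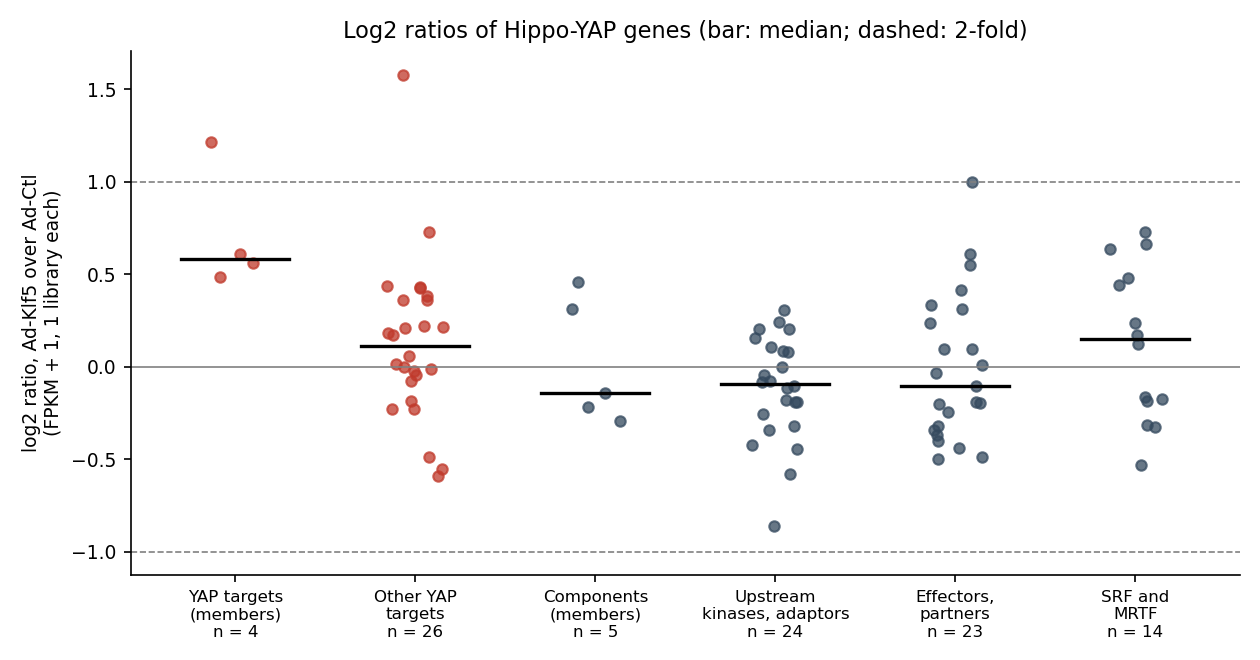
Log2 ratio of FPKM + 1, Ad-Klf5 over Ad-Ctl, in the named libraries (1 each), for measured genes; each point is a gene, the bar is the median and dashed lines mark 2-fold. The 4 target members lie between 0.49 and 1.22, while the 26 other YAP targets spread from -0.59 to 1.58 around a median of 0.11.

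The markers of cell types were looked at in the same libraries. Of 6 measured smooth muscle markers, 2 lay above 0 and all 6 were under 2-fold, with a median ratio of -0.23 and a range from -0.58 for Lmod1 to 0.44 for Tagln. Smooth muscle actin Acta2 was at 201 FPKM in Ad-Klf5 and 229 FPKM in Ad-Ctl (-0.19), Cnn1 was under the minimum in both, and Myh11 was not analysed here. Of 10 mesothelial markers, 3 were not analysed here and 7 were over the minimum. At least 2-fold higher in Ad-Klf5 were 5 of them, namely Msln, Upk3b, Upk1b, Krt19 and Slpi. Their ratios ran from 1.12 for Slpi to 3.33 for Msln. The sum of the 7 was 181 FPKM in Ad-Klf5 and 49.0 FPKM in Ad-Ctl. The values left in the authors' means had a median difference of -0.054 for the mesothelial markers and -0.11 for the 4 targets. Within groups, the named Ad-Klf5 library was above the value left for all 7 mesothelial markers and below it for all 4 targets. The named Ad-Ctl library was below the value left for 4 of the 7 mesothelial markers and for all 4 targets. Of 8 endothelial markers, 7 were not analysed here and 1 was over the minimum. Of 8 macrophage markers, 6 were not analysed here, 1 was over the minimum and 1 was under it. The levels of the markers not analysed are unknown here. Of 8 fibroblast markers, 4 were not analysed here and 4 were over the minimum, with a median ratio of -0.071. Ly6a was at 12.8 FPKM in Ad-Klf5 and 1.45 FPKM in Ad-Ctl (2.49). Pdgfra was at 4.62 FPKM in Ad-Klf5 and 13.7 FPKM in Ad-Ctl (-1.39). Dcn and Clec3b had ratios of -0.066 and -0.076. The values left in the authors' means differed by 0.25 for Ly6a and by -0.052 for Pdgfra. The part of these cells in the ratios of the YAP targets was not tested, and in bulk RNA a change in the number of cells of a type cannot be told apart from a change of RNA per cell.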

How the data were processed

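RNA of VSMCs infected with Ad-Klf5 or Ad-Ctl was measured in 1 named library each, and samples were grouped by their titles. The deposited FPKM values of the named libraries and, for each group, the authors' mean on the log2 scale, log2(FPKM + 1), were used. The authors' own comparison (log2 fold change, fold change as a ratio, and p-values and q-values) was deposited beside them and was not used. Means were assigned to groups by arithmetic: taking the named library out of the mean of an assumed 2 libraries left 0 values below 0 as assigned and 119 the other way round. For trimming, alignment and assembly, STAR 2.5.2b, HISAT2 2.0.5, StringTie and cutadapt are listed by the submitters' notes without roles, and filters are not given in the sources used here. The loci fit GRCm38, and 11255 of 11275 IDs were found in GENCODE vM21.

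Rows that share a symbol were summed, the pseudocount was 1, and genes averaging 1 FPKM or more were counted at 2-fold. No test was run, since a group has 1 named library. The members and lists were chosen with earlier results of these data known. Named genes are the members, Klf5, genes of a list at least 2-fold apart and up to 4 of each list with the largest ratios at a mean of at least 5 FPKM; paralogs of members, Axl, Stk3 and Stk4 were named for their role after their values were seen, and 1 gene of the further targets is not reported here. Alternatives were other pseudocounts, filters, scalings, the highest row of a symbol, the authors' means and 1.5-fold; centring by exon length, the values left in the means and all 6 components were added after the data were seen. The log2 ratio and the 2-fold count were tested on simulated data. The taking out of named libraries, the centring by exon length and the motif search were not. Python 3.11.15, numpy 2.4.6, pandas 2.3.3 and matplotlib 3.10.9 were used.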

Additional observations from a re-analysis of the deposited data

How the results depend on the processing

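Under the planned settings, all 79 recomputed log2 ratios of single members kept their sign. Much of this was fixed beforehand, since filters and the highest row left the ratios unchanged and a pseudocount cannot turn a sign. Only the scalings and the authors' means could do so. Cyr61 stayed at least 2-fold higher except with the authors' group means, where it was at 0.52. With those means 0 members were 2-fold apart, the median was 0.27 for the targets and the difference between targets and components was 0.28. At 1.5-fold, 2 members were counted as higher. The median of the components turned to 0.083 with no filter or with all 6 components, where the difference was 0.50, and to 0.049 at a mean of at least 5 FPKM. In the values left in the authors' means with 2 libraries per group, chosen after the data were seen, 0 members were 2-fold apart, Cyr61 was at -0.17, and the medians were -0.11 for the targets and 0.061 for the components, a difference of -0.17. If a group held 3 libraries, again 0 members were 2-fold apart, and the values left were 0.11 for the targets and 0.054 for the components, a difference of 0.058, with Cyr61 at 0.18. Read counts are not in the values, so the counting error behind low values such as Tead1 could not be given. The ratio of Tead1 was 0.57 with a pseudocount of 0.1 and 0.10 with 5. No paired analysis was possible because each group has 1 named library, and no replicate could be left out.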

Other observations

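Genes of the serum response factor SRF and its coactivators, which share targets such as Cyr61 and Ctgf with YAP, were looked at as a neighbouring group. Of 14 genes over the minimum, 8 lay above 0 and 14 were under 2-fold, with a median log2 ratio of 0.15. The cytoplasmic actin genes Actb and Actg1 were at 613 and 428 FPKM in Ad-Klf5, against 394 and 269 FPKM in Ad-Ctl, which are log2 ratios of 0.64 and 0.66, and the tropomyosin gene Tpm1 was at 0.48. Filamin A (Flna) was at 86.4 FPKM in Ad-Klf5 and 125 FPKM in Ad-Ctl (-0.53). Srf itself was at 20.2 FPKM in Ad-Klf5 and 17.0 FPKM in Ad-Ctl (0.23). In the values left in the authors' means, Actb was at -0.25, Actg1 at -0.14 and Tpm1 at 0.81. The actins and Tpm1 thus lay on different sides of 0 there, with Flna at -0.15 and Srf at -0.11. Of the 14 genes, 4 were above 0 in those values. The median of the 14 was -0.12, beside -0.11 for the 4 YAP targets. The named library was below the value left in the mean for 10 of the 14 genes in Ad-Klf5, with a median distance of -0.40, and for 13 of the 14 in Ad-Ctl, with a median distance of -0.47, where 50.5% of all measured genes in Ad-Klf5 and 44.9% in Ad-Ctl were below. For the 4 YAP targets the median distance was -0.65 in Ad-Klf5 and -1.71 in Ad-Ctl.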
